A study of Mus musculus with 2 samples.

Results

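Interferon-high macrophages of mouse pancreatic islets were 370 of the 2863 macrophages in 2 droplet libraries of sorted islet immune cells. The cells came from C57BL/6J males on chow diet, and the labels name no transgene or treatment. A macrophage was a barcode with at least 500 detected genes, at least 1000 unique molecular identifiers (UMIs, 1 per captured transcript) and at most 10% mitochondrial UMIs that held at least 5 UMIs of the complement genes C1qa, C1qb and C1qc. A macrophage was called interferon-high when it also held at least 3 UMIs of Ifit1, Ifit2, Ifit3 and Rsad2, 4 genes that interferons induce. These 4 gate genes chose the cells and support nothing below, and their near copies Ifit3b, Ifit1bl1 and Ifit1bl2 were left out with them. All other macrophages of the same library, called the remaining macrophages, were the comparison.

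The study sorted immune cells (DAPI-, Epcam-, CD45+) from islets pooled over 6 to 8 mice and counted 3' transcript ends. One pool is labelled 1 week and the other 12 weeks, with 1 library each. What the weeks count is not stated in the labels used here, and the titles number both libraries as replicates. Loading aimed at 3000 to 4000 cells, the files hold 1551 and 1867 barcodes, and 1340 and 1752 passed the filters. The interferon-high macrophages were 148 of 1243 macrophages in the 1-week library and 222 of 1620 in the 12-week library. Islets were pooled before sorting, so how the cells were spread over mice is not known.

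Interferons are secreted proteins that cells release after sensing microbial or misplaced nucleic acids, and they bind receptors on the same and on neighbouring cells. Type I interferons, among them interferon beta, act through the receptor chains Ifnar1 and Ifnar2, the kinases Jak1 and Tyk2, and factors such as Stat2 and Irf9, which bind interferon response elements in gene promoters. Interferon gamma acts through Ifngr1 and Ifngr2, and the 2 responses overlap in many genes. In islets, macrophages are the main resident immune cells and lie next to the hormone-secreting cells.

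Macrophage markers that neither gate used were present in both classes. Levels are given as CPM (UMIs of a gene among 1e+06 UMIs of the class), 1-week library first. The surface marker Adgre1, which encodes F4/80, stood at 222 against 218 and 193 against 211, the growth factor receptor gene Csf1r at 528 against 528 and 420.5 against 488 and the lysosomal marker Cd68 at 420.3 against 439 and 456 against 454 in interferon-high against remaining macrophages. None of these 3 was called by edgeR or DESeq2 in the comparison described below (-0.01, -0.07 and 0.01 on the log2 scale). Interferon-high macrophages were deeper, with a median of 10083.5 UMIs per cell against 7153 at 1 week and 7638.5 against 6808 at 12 weeks. Median mitochondrial shares were 3.41% against 3.38%, and 3.05% against 3.06%. No doublet caller was run, so droplets that mix cell types stayed in the data. The 7 T cell markers (Cd3d, Cd3e, Cd3g, Trac, Trbc2, Lat and Lck) were all detected in both classes, 5 of the 6 that were tested were called higher, and they summed to 27.9 against 8.32 CPM at 1 week and 69.3 against 13.7 at 12 weeks. At least 3 of their UMIs were found in 5 of 148 interferon-high macrophages (3.38%) against 6 of 1095 remaining ones (0.548%), and in 7 of 222 (3.15%) against 8 of 1398 (0.572%). Other marker lists moved as well. At 1 week 3 UMIs were reached by B cell markers in 4.05% against 1.19%, by neutrophil markers in 4.73% against 0.548% and by conventional dendritic cell markers in 3.38% against 1.10% of cells. At 12 weeks these shares were 0% against 0.143%, 1.35% against 0.930% and 0.901% against 0.787%. Neutrophil markers summed to 24.7 against 24.1 CPM at 1 week and 221 against 53.0 at 12 weeks, and erythroid markers to 198 against 0.648 and 36.3 against 167. The erythroid sums came from few cells. At least 3 erythroid UMIs were in 1 of 148 against 0 of 1095 cells, and in 2 of 222 against 8 of 1398. None of these marker shares was thinned to equal depth. The part of these cells in the results below was not tested beyond leaving out cells with such markers, which did not use the erythroid list. The libraries shared 3 barcodes, and none was interferon-high in both.

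The gate genes were unevenly spread over macrophages. In the 1-week library 955 of 1243 macrophages (76.8%) had no gate UMI, 111 had 1 and 29 had 2, and just inside the threshold 20 had 3 and 11 had 4. In the 12-week library 1124 of 1620 (69.4%) had none, 193 had 1 and 81 had 2, against 42 with 3 and 32 with 4. Beyond the threshold the counts reached 136 UMIs in 1 cell at 1 week and 388 at 12 weeks, with medians of 11 and 7. Interferon-high macrophages were 11.9% of macrophages at 1 week (exact binomial 95% interval 10.2 to 13.8) and 13.7% at 12 weeks (12.1 to 15.5). With each cell thinned to 3000 UMIs the shares were 7.07% and 8.63%, so the share itself depends on depth. With 1 library per label no difference between the shares was tested. In the other sorted cells, with C1q sums under 5 UMIs, at least 3 gate UMIs were found in 2 of 97 (2.06%) and in 8 of 132 (6.06%), at median depths of 6499 and 3920 UMIs.

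**Figure D1:**
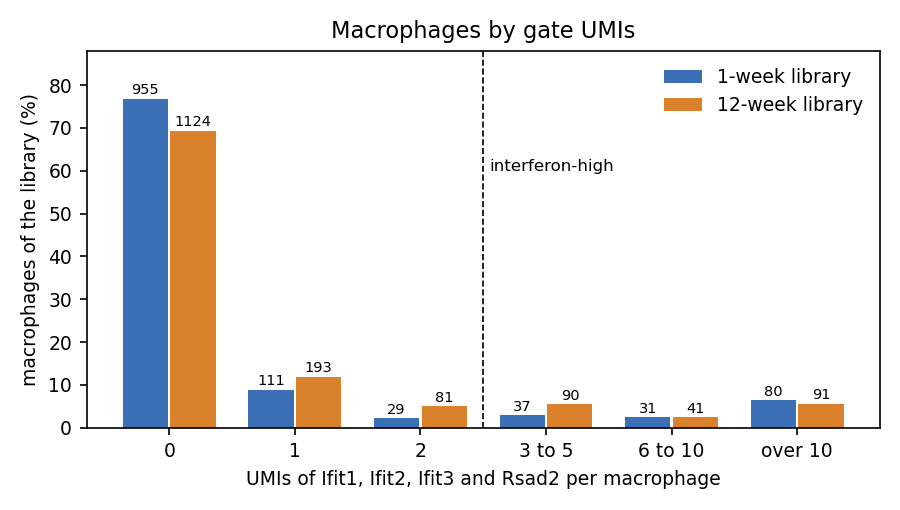
Share of the macrophages of each library (y axis, %) by the summed UMIs of the 4 gate genes per cell (x axis), with the number of cells above each bar. The dashed line marks the threshold of 3 UMIs: most macrophages hold none, and 80 and 91 cells hold over 10.

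Interferon-high macrophages differed from the remaining ones in a broad set of antiviral, chemokine and signalling genes beyond the gate. Summed counts of both classes in both libraries were compared with edgeR's quasi-likelihood test with the library as a block. Of 9957 genes tested, 353 were higher (3.55%) and 58 lower (0.583%) at a Benjamini-Hochberg adjusted p of 0.05. Of the 353 genes called higher, 348 were higher in each library, and all 58 called lower were lower in each. The calls rest on both libraries together, so this agreement is in part built in. At least 2-fold differences were found for 167 of the higher and 27 of the lower genes. The fit had 1 residual degree of freedom against a mean of 13.66 prior ones, so most of a gene's spread was drawn from other genes. Its p-values only in part measure how far a gene's own difference varied between 2 libraries that also carry different time labels. Genes with unlike values in the 2 libraries could therefore be called. DESeq2 called 149 higher (1.5%) and 8 lower (0.0803%), and without the library block edgeR called 22 (0.221%) and 0 (0.0%), with 375 and 113 at an unadjusted p of 0.05. At an unadjusted p of 0.05 edgeR with the block gave 814 (8.18%) and 393 (3.95%). With cells of 5000 to 15000 UMIs in both classes, 370.0 genes were higher, of which 305 were among the 353. With cells that held 3 UMIs of another cell type's markers left out, 299 were higher, of which 252 were among the 353. The cells were split by 4 genes of the same response, so differences in genes induced with them follow in part from the split.

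**Figure D2:**
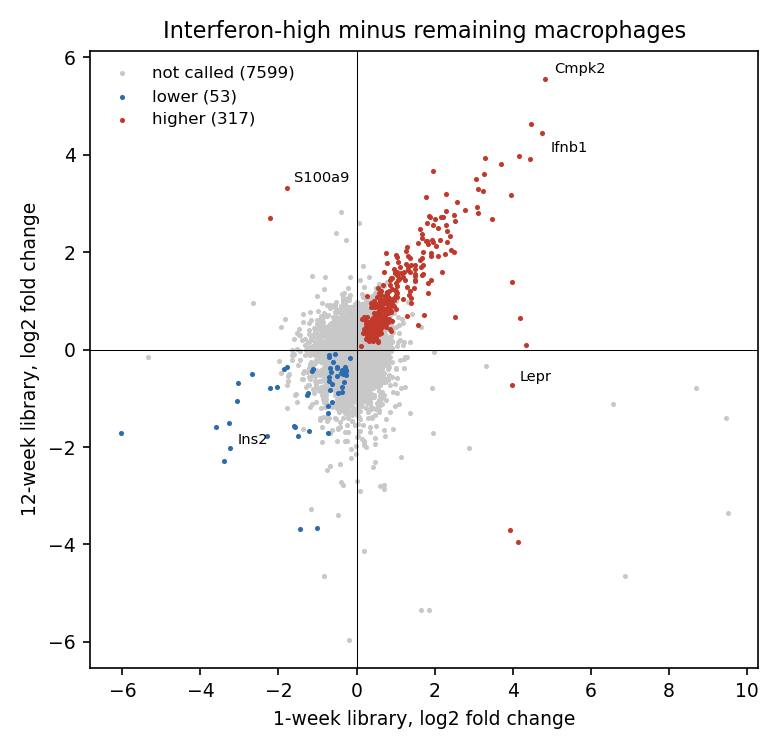
Log2 fold change of interferon-high over remaining macrophages in the 1-week library (x axis) and in the 12-week library (y axis), 1 point per gene with at least 100 UMIs in all (317 higher, 53 lower, 7599 not called). Genes called higher lie mostly along the diagonal, while Lepr and S100a9, which rest on 1 cell or on under 3 UMIs in a library, lie off it.

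Antiviral effector genes, whose products block viral entry, RNA or protein synthesis, were higher for most of the list. Of 76 tested, 68 were higher and 0 lower, with a median log2 fold change of 1.57 beside -0.00144 over all genes tested. Isg15, a ubiquitin-like protein that is attached to other proteins, stood at 742 against 89.5 CPM in the 1-week library and 711 against 95.8 in the 12-week library. Its log2 fold change was 3.01 (SE 0.08, adjusted p = 6.49e-13), and both libraries gave nearly the same value (3.08 and 2.94). Below, values in parentheses without a unit are log2 fold changes of interferon-high over remaining macrophages, and pairs of CPM give the 1-week library first. Cmpk2, a mitochondrial nucleotide kinase that neighbours the gate gene Rsad2, had the largest value of the genes named here at 5.38 (SE 0.26, adjusted p = 1.47e-09). It was rare in the remaining macrophages, with levels of 29.8 against 0.972 and 84.4 against 1.76 CPM. Transcripts of the dynamin-like GTPase gene Mx1 stood at 70.3 against 3.89 and 131 against 8.49 (4.07, SE 0.17, adjusted p = 2.82e-10). Usp18, the protease that removes Isg15 and dampens interferon receptor signalling, stood at 40.0 against 3.02 and 86.7 against 6.32 (3.79, SE 0.20, adjusted p = 4.58e-09).

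Other antiviral genes and genes with large differences spanned a wide range. Slfn1, of a family that acts on growth and on transfer RNAs, had a log2 fold change of 4.66, and Ifi44 of 3.86. In the family of DNA-binding Ifi200 genes, whose members are alike in sequence so that reads may be shared between them, Ifi208 (4.32), Ifi205 (3.63), Ifi206 (3.47) and Ifi214 (3.37) were among the 20 genes with the largest values. Ifi208 had 5 UMIs in interferon-high macrophages at 1 week and 33 at 12 weeks, with log2 fold changes of 2.24 and 4.99. Plagl1, a zinc finger factor in no list, was at 3.06 (SE 0.32) and came from 13 and 12 interferon-high cells. The transcripts AC125149.3 (3.76) and A530040E14Rik (3.01) were higher in each library. In the remaining macrophages Slfn1 stood at 0.540 and 1.55 CPM and Ifi44 at 0.648 and 1.35. Ifi208 stood there at 0.432 and 0.518 and AC125149.3 at 0.648 and 0.414. These 4 passed the filter on low counts only through the interferon-high profiles, so their values and calls follow in part from the filter. Gm26764 was at 4.19 at 1 week, where 1 cell gave 94.9% of its UMIs, and at 0.65 at 12 weeks. At the low end of the called genes stood Bst2, which tethers budding virus (0.30), Ly6e (0.41) and Ifi27l2a (0.39). The 8 antiviral genes not called had values from 0.03 (Stap1) to 1.48 (Mov10).

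GTPases that attack the membranes around intracellular microbes were higher too. Of 14 guanylate-binding proteins and immunity-related GTPases tested, 11 were higher and 0 lower (median 2.21). Gbp5 stood at 40.0 against 4.64 CPM in the 1-week library and 78.3 against 8.08 in the 12-week library (3.24, SE 0.20, adjusted p = 2.34e-08). Ifi47 (3.27, SE 0.19) and Igtp (2.80, SE 0.26) were higher in both libraries, and Gbp2 stood at 29.8 against 10.7 and 51.4 against 16.8 CPM (1.59, adjusted p = 6.00e-05). Iigp1 was called with 10 UMIs from 2 interferon-high cells at 1 week and 11 UMIs from 3 cells at 12 weeks, so its value of 3.47 (SE 0.75) describes very few cells, and the libraries differed (5.75 and 2.52). With 0 and 10 UMIs in the remaining macrophages, Iigp1 passed the filter on low counts only through the interferon-high profiles. Gbp8, Gbp9 and Gvin1 did not pass the test.

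Promoter sequences were compared because the higher genes moved together. RefSeq promoters of GRCm38.p6, from 250 bases before to 50 after the start, were found for 7829 of the 9957 tested genes. The interferon response element was searched on both strands as GAAA, any 2 bases and GAAA. It occurred in the promoters of 64 of 288 genes called higher (22.2%), of 42 of 130 genes at least 2-fold higher (32.3%) and of 1 of 46 genes called lower (2.17%), against 317 of 7829 genes tested (4.05%) and 3.99% of all genes with a promoter. Among antiviral genes 28 of 62 held it (45.2%) and among the GTPase genes 8 of 9. The interferon-gamma activated site was searched as TTCNNNGAA, where N is any base. It was in 35 of 288 genes called higher (12.2%) and 2 of 46 called lower (4.35%), against 8.28% of the genes tested. Among antiviral genes 9 of 62 held it (14.5%) and among the GTPase genes 5 of 9. The NF-kB site, searched as GGGA, any base and TTTCC, was in 6 of 19 inflammatory genes (31.6%) and in 0.549% of the genes tested. No inflammatory gene promoter held the interferon response element. A match is a string of letters in a window and not a measured site.

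Promoters of 4 higher genes that hold the interferon response element, and that of Ifnb1, are shown as the 250 bases before the start. Matches to this element, on either strand, are in capitals, and matches to the other sites are not marked. In Isg15 3 overlapping matches lie 78 to 57 bases before the start.
Isg15 (chr4:156200819-156201068, minus strand): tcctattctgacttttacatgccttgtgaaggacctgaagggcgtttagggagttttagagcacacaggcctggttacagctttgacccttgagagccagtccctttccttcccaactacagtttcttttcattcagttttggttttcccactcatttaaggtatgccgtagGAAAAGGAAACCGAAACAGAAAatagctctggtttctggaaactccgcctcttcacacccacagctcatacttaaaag
Cxcl10 (chr5:92348890-92349139, minus strand): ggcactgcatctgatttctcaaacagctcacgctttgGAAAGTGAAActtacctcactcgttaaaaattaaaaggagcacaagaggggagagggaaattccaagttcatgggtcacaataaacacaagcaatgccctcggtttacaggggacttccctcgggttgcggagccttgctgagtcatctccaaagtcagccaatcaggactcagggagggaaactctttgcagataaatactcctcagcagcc
Gbp5 (chr3:142496684-142496933, plus strand): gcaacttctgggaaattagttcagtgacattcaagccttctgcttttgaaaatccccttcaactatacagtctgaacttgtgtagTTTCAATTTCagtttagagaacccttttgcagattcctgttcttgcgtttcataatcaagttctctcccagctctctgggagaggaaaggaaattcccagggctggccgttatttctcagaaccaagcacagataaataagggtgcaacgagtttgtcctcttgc
Stat2 (chr10:128270248-128270497, plus strand): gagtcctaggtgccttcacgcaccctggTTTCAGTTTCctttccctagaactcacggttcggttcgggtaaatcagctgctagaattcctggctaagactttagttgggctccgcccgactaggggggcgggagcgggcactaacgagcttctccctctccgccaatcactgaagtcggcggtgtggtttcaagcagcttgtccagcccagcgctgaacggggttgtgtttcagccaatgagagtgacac
Ifnb1 (chr4:88522795-88523044, minus strand): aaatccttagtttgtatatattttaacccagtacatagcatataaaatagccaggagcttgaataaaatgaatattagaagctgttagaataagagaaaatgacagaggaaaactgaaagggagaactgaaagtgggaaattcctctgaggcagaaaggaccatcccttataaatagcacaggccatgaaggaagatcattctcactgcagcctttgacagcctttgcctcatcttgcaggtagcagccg
The Cxcl10 match lies 213 to 204 bases before the start, that of Gbp5 165 to 156 and that of Stat2 222 to 213. The Ifnb1 window holds no match to these letters. Isg15 is ENSMUSG00000035692, chromosome 4, 156199424 to 156200818, minus strand. Cxcl10 is ENSMUSG00000034855, chromosome 5, 92346638 to 92348889, minus strand. Gbp5 is ENSMUSG00000105504, chromosome 3, 142493978 to 142522344, plus strand. Stat2 is ENSMUSG00000040033, chromosome 10, 128270559 to 128292849, plus strand. Ifnb1 is ENSMUSG00000048806, chromosome 4, 88522025 to 88522774, minus strand. Gene positions are those of GENCODE vM21 on GRCm38, the assembly that mm10 names, and all are protein-coding. The RefSeq starts that place the promoters can differ from these gene ends.

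Interferon beta itself was among the genes with the largest difference. Of 13 interferon ligand genes in the files, Ifnb1 alone passed the count filter. It stood at 79.6 against 2.92 CPM in the 1-week library and 25.7 against 1.14 in the 12-week library, with a log2 fold change of 4.70 (SE 0.24, adjusted p = 2.70e-09, SD 0.22 over the libraries). Interferon-high macrophages held 171 and 46 Ifnb1 UMIs in the 1-week and the 12-week library, and the 1095 and 1398 remaining macrophages held 27 and 11. At least 1 Ifnb1 UMI was found in 35 of 148 interferon-high macrophages at 1 week (23.6%, exact 95% interval 17.1 to 31.3) against 18 of 1095 remaining ones (1.64%, 0.977 to 2.59). At 12 weeks the shares were 20 of 222 (9.01%, 5.59 to 13.6) and 4 of 1398 (0.286%, 0.0780 to 0.731). In the sorted cells with low C1q, none of 97 and none of 132 held an Ifnb1 UMI. The exact intervals for the share of such cells with a UMI reach 3.73% and 2.76%, at median depths of 6499 and 3920 UMIs. Thinned to 3000 UMIs, 12.8% (7.74 to 19.4) against 0.527% (0.171 to 1.23) had a UMI at 1 week and 5.96% (3.21 to 9.98) against 0.152% (0.0185 to 0.550) at 12 weeks. Intervals cover counting error only. Plasmacytoid dendritic cells are known for interferon secretion. Of their 6 markers, all tested, Tcf4 (0.63) and Bst2 (0.30), which is itself induced by interferon, were called higher, and Siglech (-0.21), Ccr9, Ly6d and Cox6a2 were not. The 6 summed to 955 against 825 CPM at 1 week and 954 against 774 at 12 weeks, with Ly6d at 0 in interferon-high macrophages at 12 weeks. At least 3 UMIs of the markers other than Bst2 were found in 37.8% of interferon-high against 17.3% of remaining macrophages at 1 week and in 28.8% against 17.3% at 12 weeks. Tcf4 was in 86 of 148 against 409 of 1095 cells at 1 week and in 111 of 222 against 485 of 1398 at 12 weeks, and Siglech in 72 against 422 and in 89 against 562 of the same cells. These shares and cell counts were not thinned, and interferon-high macrophages were deeper. In CPM Tcf4 stood at 105 against 71.5 and 124 against 79.6, and Siglech at 65.2 against 82.4 and 87.2 against 97.9. The part of depth in the shares was not tested. With cells that held 3 UMIs of another cell type's markers left out, those of plasmacytoid cells included, Ifnb1 was at 4.77. It lost its call without the library block, with a log2 fold change of 4.73 and an adjusted p of 0.0533. Ifng, which T and NK cells make, was not tested and had 1 UMI in interferon-high macrophages of each library.

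**Figure D3:**
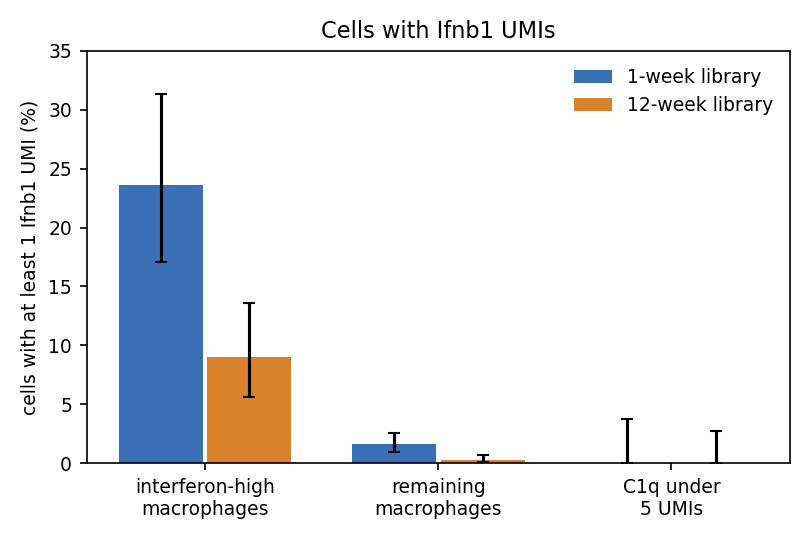
Share of cells with at least 1 Ifnb1 UMI (y axis, %) in interferon-high macrophages, remaining macrophages and sorted cells with C1q sums under 5 UMIs, per library, without thinning. Error bars are exact binomial 95% intervals over cells: 23.6% and 9.01% of interferon-high macrophages stand above 1.64% and 0.286% of the remaining ones.

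Within the interferon-high macrophages, cells with an Ifnb1 UMI carried more transcripts of inflammatory genes than those without. Their 23 genes of the inflammatory NF-kB response summed to 30644 against 15770 CPM at 1 week and to 35836 against 17097 at 12 weeks. Ccl4 stood at 10179 against 3134 and at 15665 against 3838, Tnf at 1230 against 539 and at 944 against 439, and Il6 at 50.8 against 11.8 and at 207 against 28.8. The remaining macrophages differed the same way, with list sums of 25758 against 12713 CPM at 1 week and 28475 against 12709 at 12 weeks. There only 18 and 4 cells held an Ifnb1 UMI. In interferon-high macrophages antiviral effector transcripts were about equal at 1 week (9760 against 9390) and higher with Ifnb1 at 12 weeks (18329 against 11595). Of that list, Isg15 was higher with Ifnb1 in both libraries, at 1230 against 540 and at 1765 against 611. Irf7 stood at 47.7 against 67.8 and at 90.5 against 114. These Irf7 values rest on few UMIs, with 133 and 201 over all interferon-high macrophages, of which 35 and 20 cells held Ifnb1. No interval was computed, so a difference in Irf7 is not established. Median depths were 10790 against 9895 and 7492.5 against 7641 UMIs, and median gate counts 19 against 8 and 35.5 against 7. These cells were grouped by a measured transcript in single libraries, so the values are a description without a test.

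Signal transducers, factors and inhibitors of the pathway were higher in part, and its receptors were not called. Of 20 signalling genes tested, 10 were higher and 0 lower (median 0.41). Irf7, the factor that amplifies interferon production, stood at 61.9 against 12.9 CPM in the 1-week library and 112 against 19.6 in the 12-week library (2.44, SE 0.15, adjusted p = 3.06e-08). Stat2, a factor of the type I response (1.32 at 1 week and 1.63 at 12 weeks, SE 0.19, adjusted p = 9.14e-05), was higher, and so was Socs1, an inhibitor of the Jak kinases (2.26, SE 0.22). Batf2 was called on 8 and 23 UMIs (2.17, SE 0.45). Irf9, the DNA-binding partner of Stat2, did not pass (0.42, SE 0.12, adjusted p = 0.0843). Among the receptors Ifnar1 had a value of -0.05 (SE 0.12, adjusted p = 0.931) and Ifngr1 of -0.08 (SE 0.09, adjusted p = 0.842), and Ifnar2 and Ifngr2 were not called either.

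Some sensors of foreign nucleic acid were higher, among them sensors of RNA. Of 19 sensing genes tested, 6 were higher and 0 lower (median 0.44). Ifih1, which encodes the double-stranded RNA sensor MDA5, stood at 129 against 23.3 CPM in the 1-week library and 169 against 25.6 in the 12-week library (2.64, SE 0.11, adjusted p = 3.42e-10). Ddx58, which encodes RIG-I, had a value of 2.39 (SE 0.20), the Z-nucleic acid sensor Zbp1 of 2.07 (SE 0.21) and the endosomal receptor Tlr3 of 1.75 (SE 0.46, adjusted p = 0.042). The DNA sensor gene Mb21d1, which encodes cGAS (0.91), and Dhx58, a relative of Ddx58 (1.69), were called as well. The cGAS adaptor STING (Tmem173, -0.06), Mavs (0.18), Tlr7 (0.25) and Tlr9 (0.56) did not pass.

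Chemokines that attract lymphocytes and monocytes were higher. Of 7 interferon-linked chemokines tested, 6 were higher and 0 lower (median 2.32). Cxcl10, a ligand of Cxcr3, a receptor of activated T cells, stood at 1739.9 against 182 CPM in the 1-week library and 2084 against 140.3 in the 12-week library (3.61, SE 0.12, adjusted p = 1.18e-11). Ccl5, which attracts T cells and monocytes, stood at 2051 against 306 and 2325 against 329 (2.82, SE 0.06, adjusted p = 1.17e-13). Cxcl9, another Cxcr3 ligand, stood at 52.6 against 2.38 and 92.8 against 6.32 (4.13, SE 0.21), but 1 cell gave 64.6% of its 113 interferon-high UMIs at 1 week. Ccl5 is also made by T cells. With cells that held 3 UMIs of another cell type's markers left out of both classes, it was at 2.96. The monocyte attractant Ccl12 had a value of 2.32 (SE 0.12). Its relative Ccl7 was called but was at 4.35 at 1 week and 0.10 at 12 weeks, and Ccl2 at 1.72 and 0.71. Cxcl16 was not called (0.17).

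Inflammatory genes that NF-kB drives were higher in part. Of 23 tested, 13 were higher and 1 lower (median 0.41). Ccl4, a chemokine that attracts monocytes and lymphocytes, stood at 5197 against 1292 CPM in the 1-week library and 4860.5 against 1153 in the 12-week library (2.08, SE 0.05, adjusted p = 1.17e-13), and Ccl3 had a value of 1.18 (SE 0.09). The cytokine genes Il6 (1.32, SE 0.21) and Il1a (0.99, SE 0.07) were higher. Il1b, which encodes interleukin-1 beta, was not called at 1679.9 against 1391 and 1559 against 1576 CPM (0.17, SE 0.07, adjusted p = 0.272). Neither was the neutrophil attractant Cxcl1 (0.06, SE 0.12, adjusted p = 0.926), and its relative Cxcl3 was the 1 gene called lower (-1.14 at 1 week and -0.43 at 12 weeks). Tnf was higher (0.84), and inhibitors of NF-kB such as Tnfaip3 (0.45) and Nfkbia (0.33) were called with smaller values. Cxcl1 differed in sign between the libraries.

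Cytokine and checkpoint genes that act on T cells were higher, and MHC class II genes were not called. Of 20 costimulation, checkpoint and cytokine genes, 12 were higher and 0 lower (median 0.92). The checkpoint ligand PD-L1 (Cd274) stood at 30.3 against 11.9 CPM in the 1-week library and 49.8 against 17.0 in the 12-week library (1.49, SE 0.19, adjusted p = 0.000107) and the costimulatory receptor Cd40 at 214 against 133 and 196 against 114 (0.77, SE 0.08, adjusted p = 8.78e-06). Il27 (1.95 at 1 week and 3.51 at 12 weeks, SE 0.50), Il15 (2.42, SE 0.30), Tnfsf10, which encodes the death ligand TRAIL (2.43, SE 0.65), and Fam26f (2.10 at 1 week and 1.91 at 12 weeks) were higher on low counts, with 6 to 68 UMIs in interferon-high macrophages per library. Il27 (1.40 and 0.932 CPM in the remaining macrophages) and Tnfsf10 (0.432 and 1.04) passed the filter on low counts only through the interferon-high profiles. Of 20 MHC class I and peptide loading genes, 6 were higher and 0 lower (median 0.27), among them the peptide transporter Tap1 (1.31, SE 0.17), H2-T22 (0.92), the class I transactivator Nlrc5 (0.92) and the loading factor Tapbp (0.53). The light chain B2m did not pass (0.14, SE 0.05, adjusted p = 0.209). None of 11 MHC class II genes was called by edgeR or by DESeq2 (median 0.00477, 1 gene higher and 0 lower at an unadjusted p of 0.05), and H2-Ab1 stood at 10172 against 10330.3 and 12589 against 12911 CPM (0.01, SE 0.03, adjusted p = 0.964).

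**Figure D4:**
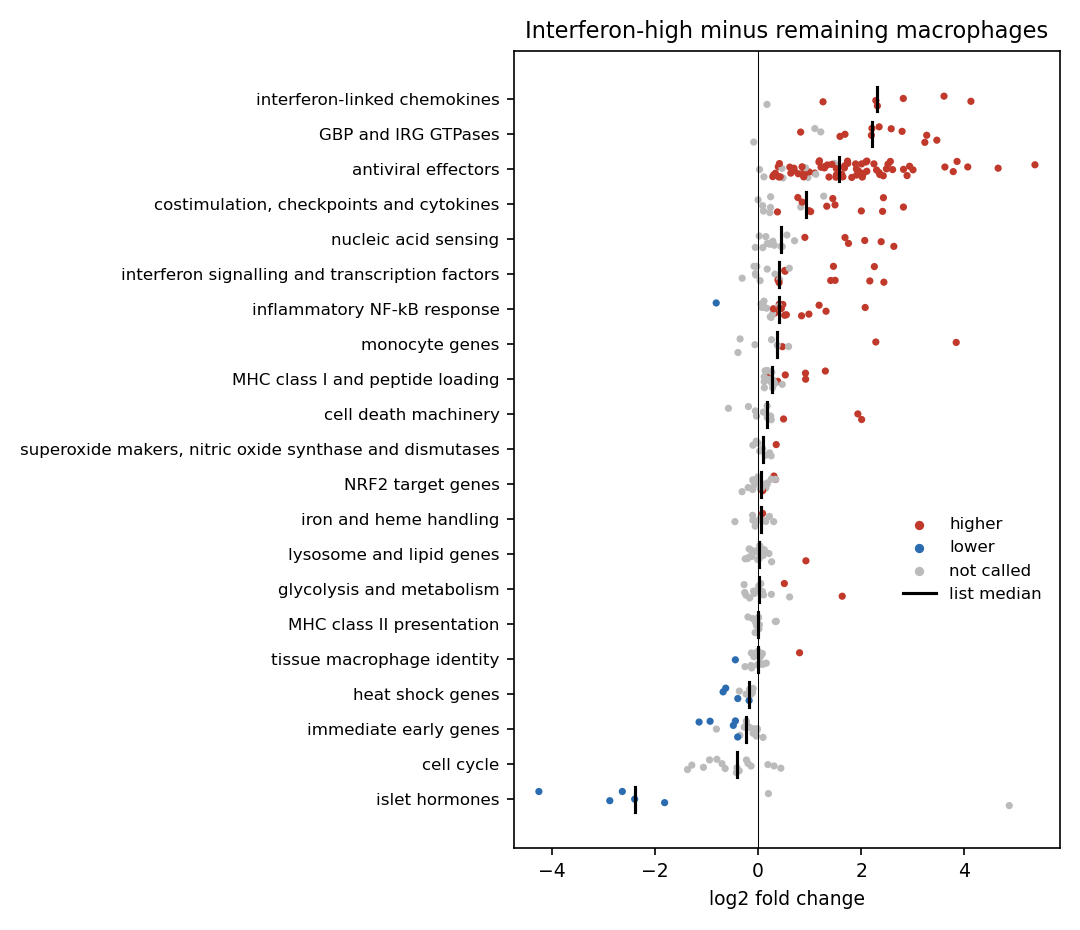
Log2 fold change of interferon-high over remaining macrophages (x axis) for each tested gene of each list (y axis, sorted by list median), red for genes called higher, blue for lower and grey for not called, with a black bar at the list median. Medians are 2.32 for interferon-linked chemokines, 1.57 for antiviral effectors, near 0 for MHC class II and identity genes and -2.40 for islet hormones.

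Antioxidant, iron and identity genes differed little or were not called. Over all genes tested 3.55% were called higher and 0.583% lower. Of 20 tested targets of NRF2, the factor that drives antioxidant genes, 3 were higher and 0 lower (median 0.06). These were the cystine transporter gene Slc7a11 (0.34, SE 0.07), the peroxiredoxin gene Prdx1 (0.31, SE 0.05) and the ferritin gene Fth1 (0.09, SE 0.02), and DESeq2 called none of the list. The heme-degrading enzyme Hmox1 stood at 1682 against 1840.1 CPM in the 1-week library and 3419.6 against 3820.2 in the 12-week library (-0.11, SE 0.05, adjusted p = 0.348). Srxn1, which repairs peroxiredoxins, had a value of 0.15 (SE 0.07, adjusted p = 0.449), and the superoxide dismutase gene Sod2 of 0.25 (SE 0.07, adjusted p = 0.0676). Cybb, the catalytic subunit of the superoxide-making oxidase, was the 1 of 9 oxidase, synthase and dismutase genes called higher (0.35, SE 0.07, adjusted p = 0.00553). Of 19 lysosome and lipid genes 1 was higher, which is near the share over all genes tested. It was Ch25h, which makes 25-hydroxycholesterol (0.93, SE 0.16). Of 15 glycolysis and metabolism genes 2 were higher, the itaconate-making enzyme Acod1 (1.63, SE 0.14) and hexokinase gene Hk2 (0.51, SE 0.09). Cell death genes held 3 called of 13, Daxx (2.01), Mlkl of necroptosis (1.94) and the inflammatory caspase gene Casp4 (0.49).

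Of 19 tissue macrophage identity genes, 1 was higher and 1 lower (median 0.000576), beside 3.55% and 0.583% over all genes tested. The Fc receptor gene Fcgr1 was higher (0.80, SE 0.13, adjusted p = 0.000797) and the fractalkine receptor gene Cx3cr1 lower, at 109 against 169.8 and 101 against 125 CPM (-0.44, SE 0.10, adjusted p = 0.0126). Cx3cr1 lost its call within 5000 to 15000 UMIs per cell (-0.40), with cells of at least 1000 genes, 2000 UMIs and at most 5% mitochondrial UMIs (-0.28) and with DESeq2 (-0.44). It was at -0.61 in the 1-week and -0.25 in the 12-week library. Of 9 monocyte genes 3 were called higher. Ly6c2 (3.85, SE 0.53) came from 4 and 3 interferon-high cells and Plac8 (2.29, SE 0.23) from 5 and 4, with 78.7% and 53.3% of its UMIs in 1 cell, and Fcgr4 (0.47, SE 0.10) from 95 and 138. Ly6c2 was not called with a gate of at least 5 UMIs (1.65) or with a rate gate of at least 4 gate UMIs per 10000 UMIs (0.42). Ccr2, the receptor that marks recruited monocytes, did not pass (-0.35, SE 0.19, adjusted p = 0.517). Plac8 was at -0.750 with the rate gate and at -0.07 within 5000 to 15000 UMIs per cell. The 6 monocyte markers summed to 70.3 against 43.0 CPM at 1 week, with Vcan at 0 in interferon-high cells, and to 50.9 against 29.9 at 12 weeks. None of 16 cell cycle genes was called by edgeR or by DESeq2 (median -0.42, 1 gene higher and 2 lower at an unadjusted p of 0.05).

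Genes called lower included stress genes and islet hormones. Of 17 immediate early genes, which respond to stimuli and to tissue dissociation, 0 were higher and 5 lower (median -0.23). Fosb stood at 61.9 against 105 CPM in the 1-week library and 56.5 against 129.7 in the 12-week library (-0.93, SE 0.11, adjusted p = 7.00e-05), and Klf4 (-0.73 at 1 week and -1.71 at 12 weeks), Jun (-0.48, SE 0.09) and Fos (-0.44, SE 0.07) were lower too. Of 12 heat shock genes 4 were lower and 0 higher (median -0.17). The inducible HSP70 gene Hspa1a stood at 1182 against 1678 and 1529 against 2912 CPM (-0.68, SE 0.08, adjusted p = 2.27e-05), with Hspa1b at -0.63, Dnajb1 at -0.40 and Hsp90aa1 at -0.18. The Hspa1a and Hspa1b sequences are nearly the same, so their reads may be shared. DESeq2 called 1 gene lower in each of the immediate early and heat shock lists, and edgeR without the library block none.

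Islet hormone transcripts, which macrophages do not make, were lower in interferon-high macrophages for 5 of 7 genes. Ins2 stood at 1577 against 15286 CPM in the 1-week library and 1126 against 4731 in the 12-week library (-2.64, SE 0.18, adjusted p = 7.35e-08), and Iapp, which encodes amylin (-2.88), Ins1 (-3.28 at 1 week and -1.50 at 12 weeks), Sst (-6.04 and -1.70) and Ppy (-2.03 and -0.77) were lower as well. Gcg (4.88) and Pyy (0.20) were not called. The libraries disagreed on Gcg, which stood at 7033 against 17.3 CPM at 1 week and 11.7 against 21.0 at 12 weeks. A few hormone-rich barcodes carried most of the difference in the hormone sums. Barcodes with over 10% hormone UMIs were 2 of 148 interferon-high and 9 of 1095 remaining macrophages at 1 week, and 0 of 222 and 1 of 1398 at 12 weeks. Without them the hormone sums were 1575 against 3196 CPM at 1 week and 1677 against 1920 at 12 weeks. The median hormone share per cell was 0.0825% against 0.0915% of UMIs, and 0.0997% against 0.0901%. With a gate of at least 2 UMIs Ins2 was at 0.08 and Sst at 2.91, and within 5000 to 15000 UMIs per cell Ins2 was at 0.06.

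The other lowest values rested on few interferon-high UMIs. Timp3, Prss53 and Sox4 had 0 UMIs in all 370 interferon-high macrophages. Against a floor of 3 counts over the group they were at least 6.59-fold, 4.16-fold and 3.47-fold lower. This floor covers counting only and not how UMIs were spread over cells. With a gate of at least 2 UMIs Prss53 was at 0.394. Secretory and islet genes Scg2 (-2.14) and G6pc2 (-2.41), the matrix gene Sparc (-2.23), Cdca8 (-2.23), Txndc16 (-2.51), Zfp512 (-2.05) and 2010015M23Rik (-3.20) had between 1 and 29 UMIs in interferon-high macrophages per library. Without the 1-week library Txndc16, Zfp512, G6pc2 and 2010015M23Rik were at -0.68, -0.50, -1.05 and -1.58, and without the 12-week library at -3.03, -2.68, -3.05 and -3.60.

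The levels of other genes were also set out by the number of gate UMIs, which chose the cells, as a description. Isg15 went from 77.7 CPM in macrophages without a gate UMI to 149.9 at 1 or 2, 429 at 3 to 5, 375 at 6 to 10 and 1040.4 above 10 at 1 week, and through 77.5, 161, 307 and 498 to 1157 at 12 weeks. Cxcl10 stood at 161 and 117 without a gate UMI and at 2576 and 4012 above 10. Ifnb1 was at 1.55, 9.86 and 122 CPM without a gate UMI, at 1 or 2 and above 10 at 1 week, and at 1.33, 0.473 and 51.5 at 12 weeks. Mx1 was at 21.8, 18.5 and 274 CPM over the 3 upper ranges at 12 weeks, and Usp18 at 18.9, 15.4 and 176. Hmox1 stood lower above 10 gate UMIs than without any, with 1820.4 in cells without and 1474 in cells above 10 at 1 week, and 3946 and 2991 at 12 weeks. It did not fall steadily, with 1940, 1867 and 1965 over the ranges between at 1 week and 3371, 3529 and 4211 at 12 weeks. These ranges are described without a test, since cells of 1 library are not replicates.

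**Figure D5:**
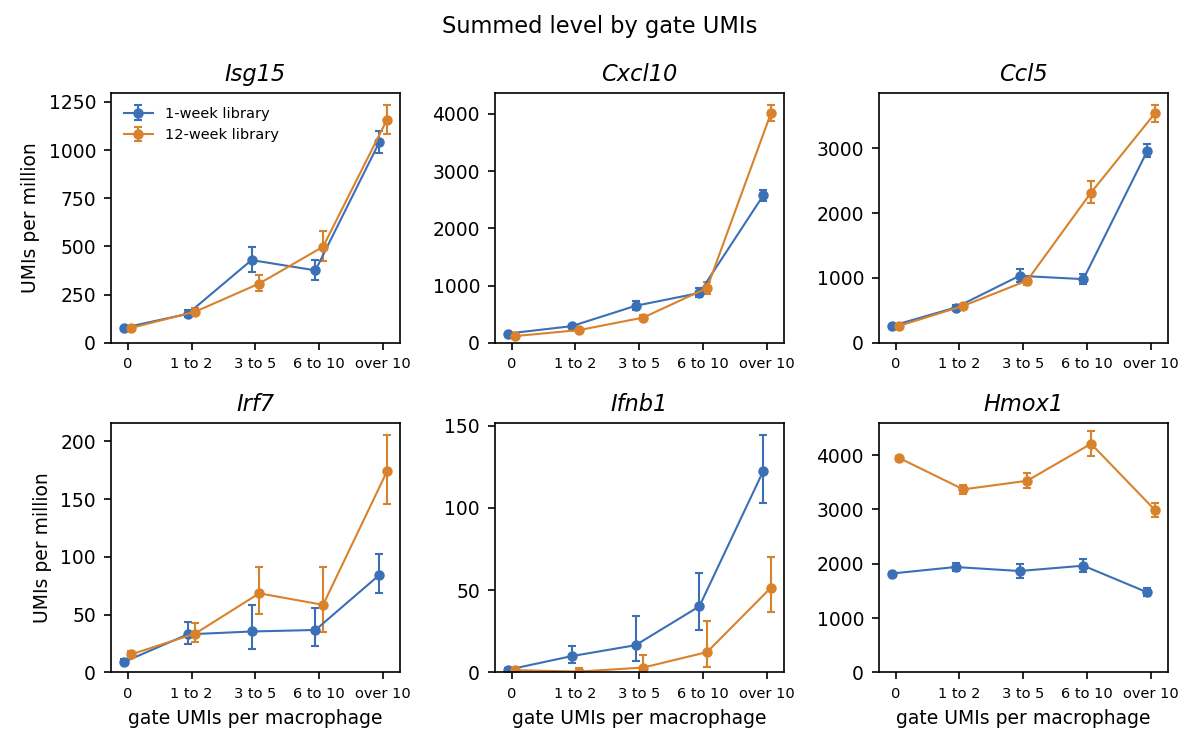
Summed level of 6 genes (y axes from 0, CPM) in macrophages ordered by gate UMIs per cell (x axes), for each library, with exact Poisson 95% intervals. Isg15, Cxcl10, Ccl5, Irf7 and Ifnb1 are highest above 10 gate UMIs, and Hmox1 differs between the libraries more than along the gate.

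Interferon-high macrophages varied widely among themselves. At 3000 UMIs per cell the antiviral list summed to a median of 29 UMIs (range 1 to 126) in 141 cells at 1 week and 32 (7 to 118) in 218 cells at 12 weeks, against 15 in the remaining macrophages of each library. Guanylate-binding and related GTPase transcripts were at 0 in 38.3% and 39.9% of these cells, and in 74.1% and 66.5% of the remaining macrophages. Antiviral and GTPase sums went together over interferon-high cells, with Spearman correlations of 0.51 (n = 141) and 0.60 (n = 218). In the remaining macrophages the correlations were 0.0891 and 0.174. The gate held those cells to at most 2 gate UMIs, which narrows their range. The correlations of the 2 classes are therefore not comparable. In interferon-high macrophages antiviral sums showed little relation to MHC class II sums (-0.0347 and -0.101). Their relation to NRF2 target sums was weak and negative (-0.244 and -0.121). The cells of a library share its preparation, and sums from 1 thinned cell share its total, so these values are descriptions.

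The 2 libraries can be set side by side, with no replicate check. Ratios below are CPM at 12 weeks over CPM at 1 week with 95% intervals that cover the counting of UMIs only. In interferon-high macrophages the antiviral list had a ratio of 1.28 (1.26 to 1.31) and the GTPase list of 1.63 (1.49 to 1.78). In remaining macrophages the same ratios were 1.09 (1.08 to 1.10) and 1.37 (1.27 to 1.49). Single antiviral genes of the interferon-high macrophages differed among themselves. Cmpk2 had a ratio of 2.83 (2.10 to 3.86), Usp18 of 2.16 (1.65 to 2.85), Mx1 of 1.86 (1.51 to 2.30) and Isg15 of 0.957 (0.888 to 1.03). Ifnb1 had a ratio of 0.323 (0.228 to 0.450) in interferon-high and 0.391 (0.175 to 0.814) in remaining macrophages, and Ccl12 one of 0.244 (0.196 to 0.301) in interferon-high macrophages. The NRF2 target Hmox1 differed alike in both classes, with ratios of 2.03 (1.95 to 2.12) and 2.08 (2.04 to 2.11). The time label, the pool of mice and the library cannot be told apart. The gate of 3 UMIs was also not scaled to depth. Median depths of interferon-high macrophages were 10083.5 UMIs at 1 week and 7638.5 at 12 weeks. The part of this in the ratios was not tested.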

How the data were processed

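The 2 libraries hold UMI counts per gene and barcode as the authors deposited them, made with Cell Ranger against mm10 per the submitters' processing notes, with software version 3.1.0 per the file headers. The cell-calling step is not stated in them. The members and the gene lists were chosen with earlier results of these data known. Counts were summed per library and class (148 and 222 interferon-high cells with 2148344 and 1788505 UMIs, 1095 and 1398 remaining cells with 9258563 and 9653076). Gate genes and their near copies were left out of the tests, and filterByExpr and TMM normalization were applied. This filter asks for enough counts in as many profiles as a class has. A gene could thus pass on the profiles of either class alone, and the values of such genes follow in part from the filter. The fit was edgeR 4.0.16's quasi-likelihood test in R 4.3.3 blocked on library, with p-values adjusted by Benjamini-Hochberg and a threshold of 0.05. Each library comes from 1 pool of mice, so p-values do not measure the spread between mice. They rest on these 2 libraries and on a spread that the fit shared over genes. Levels are CPM without TMM factors, and single-library folds use a prior count of 0.5.

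Genes named are the 20 with the largest and the 10 with the smallest log2 fold change among called genes that moved the same way in both libraries and had at least 20 UMIs in the higher class, up to 4 called genes with the largest change per list, and 25 genes of a preset list. Markers of other cell types were left out of the first 2 choices. Other genes named (among them Bst2, Ly6e, Ifi27l2a, Stap1, Mov10, Ccl7, Ccl2, Cxcl3, Tnf, Nfkbia, Tnfaip3, Ppy, Siglech, Tcf4, Lepr and Polr2l) were chosen after their values were seen. Alternatives were DESeq2 1.42.0, other normalizations, filters, gates and cell sets, no library block, and each library alone. One alternative was chosen after seeing the data: leaving out mixed droplets without the plasmacytoid list. Intervals are exact binomial for shares of cells, exact Poisson for levels and exact for ratios of counts, at 95%. Results for some genes are not reported here.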

Additional observations from a re-analysis of the deposited data

Results flagged for a closer look

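Some genes whose log2 fold changes of interferon-high over remaining macrophages had opposite signs in the 2 libraries were looked at again. Others that were not called, such as Gcg, are not listed here. The difference between the libraries was not tested, since each has 1 sample. Neither Cxcl1 (0.39 at 1 week and -0.34 at 12 weeks) nor Ifngr1 (-0.20 and 0.05) was called. The other 5 were called higher by edgeR and were picked out after their values were seen. In 4 of them the negative value sets 0 interferon-high UMIs against few UMIs in the remaining macrophages, so it depends on the prior count and measures no lower level. The long non-coding transcript A330069E16Rik was at 3.95 at 1 week, where 1 cell gave 97.6% of its 164 interferon-high UMIs, and at -3.70 at 12 weeks, with 0 against 10 UMIs. Mzb1, a gene of antibody-secreting cells, was at 4.13, with 82.3% of its UMIs in 1 cell, and at -3.95, with 0 against 12 UMIs. The neutrophil genes S100a8 (-2.21 and 2.70) and S100a9 (-1.77 and 3.32) had 0 against 3 and 0 against 2 UMIs at 1 week, and 1 cell gave 62.6% and 69.4% of their interferon-high UMIs at 12 weeks. The leptin receptor gene Lepr was at 3.98, with all 225 UMIs in 1 cell, and at -0.73, with 2 against 19 UMIs.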

How the results depend on the processing

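Counts of genes higher stayed between 270.0 and 445 under other gates, cell sets, normalizations and filters, against 353, but were 22 with no replicate block and 149 with DESeq2, all of them among the 353. Genes lower numbered 38 with a gate of 2 UMIs, 103 with a gate of 5, 114 with a C1q gate of 20, 90.0 without TMM, 155 without a filter on low counts, 8 with DESeq2 and 0 with no replicate block, against 58. Of 84 named genes called, 14 kept the call with no replicate block, 51 with DESeq2 and between 65 and 84 elsewhere. The classes come from the same droplets of each library, so the block pairs the 2 profiles of a library. Of the antiviral list, 9 genes were higher with no replicate block and 51 with DESeq2, against 68.

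Values changed sign for Ins2 (0.0778), Iapp (0.469), Sst (2.91), Scg2 (0.734) and Prss53 (0.394) with a gate of 2 UMIs, for Ins2 (0.0580), Ins1 (0.119) and Plac8 (-0.0670) within 5000 to 15000 UMIs, for Plac8 with the rate gate (-0.750) and for Scg2 without mixed droplets (0.359). The cause was not tested. The 1-week and 12-week shares of interferon-high macrophages were 14.2% and 18.7% with a gate of 2, 9.41% and 9.14% with a gate of 5, 8.81% and 11.9% without mixed droplets, and 7.07% and 8.63% at 3000 UMIs per cell. The rate gate gave 9.81% at 1 week and the depth window 15.6% at 12 weeks. The shorter core GAAA was in 94.1% of promoters of genes called higher. With each library alone no residual degree of freedom is left, so no calls were made. All 84 named genes that were called kept their direction, but this is no separate check. Genes named for the largest or smallest change had to move the same way in both libraries. The other calls came from the fit to both libraries together, which favours genes that agree.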

Other observations

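Polr2l, a small subunit shared by the RNA polymerases, was lower in interferon-high macrophages by nearly the same amount in each library, at -1.58 at 1 week and -1.59 at 12 weeks (SE 0.08, edgeR adjusted p = 1.49e-09). It had 488 and 156 UMIs in interferon-high and 6408 and 2629 in remaining macrophages. A single interferon-high cell held 26.4% of its UMIs in the first library and 9.62% in the second. It belongs to none of the lists.

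Of the 353 genes called higher, 14 had at least 20 interferon-high UMIs in a library and over 50% of those of a library in 1 cell. Genes with fewer UMIs, such as Iigp1, were not counted. Those 14 included the 5 called genes whose values had opposite signs, Gm26764, Hamp (95.8%), which encodes the iron hormone hepcidin, and Cxcl9.

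Macrophages below the gate also held Ifnb1 at times. In the 12-week library 4 remaining macrophages held its 11 UMIs, and 63.6% of these came from 1 cell. In the 1-week library 18 held 27 UMIs, with at most 4 in 1 cell.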
